A study of Mus musculus with 6 samples.

Results

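The subject is a set of 8 long mouse genes that each held several places where the DNA-binding protein YBX1 was called: Dlg2, Csmd1, Asic2, Nckap5, Etl4, Pde1c, Luzp2 and Tmem132b. They were selected on the called peaks of all 3 lists, as protein-coding genes with a span over 250 kb that hold at least 4 shared regions, a shared region being a stretch with an overlapping peak in at least 2 of 3 peak lists. They are 8 of 21779 protein-coding genes, 722 of which span over 250 kb, and 9 of those 722 met the limit of 4. The gene that met it besides the 8 is not described here and counts among the other long genes. The choice used those peaks, so the numbers of peaks and their strengths below describe the 8 genes and were not tested.

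The libraries came from untreated BaF3 cells, a mouse pro-B cell line, carrying JAK2 V617F, the constantly active form of the kinase JAK2. In all 6 libraries the cells were of this kind: 3 were immunoprecipitates with an antibody to YBX1 and 3 were input, DNA taken without antibody. Each immunoprecipitate had been compared with the input of its own number, which gave lists 1, 2 and 3 with 7053, 2628 and 2827 peaks from 67.0 M to 69.7 M tags kept per immunoprecipitate. The inputs were less alike, with 87.6 M, 70.4 M and 67.0 M tags kept. The input was scaled by 0.765 in list 1 and by 0.97 in list 2, and in list 3 the immunoprecipitate was scaled by 0.961. What the deeper input of list 1 contributes to its peaks was not tested. No control antibody, no cells lacking YBX1 and no cells lacking the kinase mutant were analysed here, and nothing in the labels tells if replicates came from separate cultures, so the spread between lists may be technical.

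YBX1 is a cold shock domain protein that binds RNA and DNA and takes part in splicing, translation and transcription. It was first described as a protein of the Y-box, a promoter element whose core is the inverted CCAAT sequence, ATTGG. Of the 8 long genes, Dlg2, Asic2 and Csmd1 are mostly known from the nervous system. Genes of such length consist almost wholly of introns, and those introns carry many interspersed repeats.

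No peak of any list lay within 1 kb of a start site that RefSeq's promoter table lists for these genes, and the table lists 15 starts for 7 of them, with Csmd1 absent. The share of all listed starts with a peak that near is not given here, so nothing is read from this absence. The 3 windows shown are the starts closest to a shared region in their genes, and they show the letters next to which no peak was called. Each gives the 250 bases before the start, read 5′ to 3′ on the gene's strand (GRCm38.p6), with CCAAT or ATTGG in capitals.
Dlg2, chr7:92234720-92234969, + strand: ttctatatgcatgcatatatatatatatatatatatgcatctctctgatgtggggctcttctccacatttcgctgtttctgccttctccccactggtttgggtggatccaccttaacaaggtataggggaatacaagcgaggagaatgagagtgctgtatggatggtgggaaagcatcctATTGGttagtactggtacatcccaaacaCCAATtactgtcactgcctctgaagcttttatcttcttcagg
Etl4, chr2:20289663-20289912, + strand: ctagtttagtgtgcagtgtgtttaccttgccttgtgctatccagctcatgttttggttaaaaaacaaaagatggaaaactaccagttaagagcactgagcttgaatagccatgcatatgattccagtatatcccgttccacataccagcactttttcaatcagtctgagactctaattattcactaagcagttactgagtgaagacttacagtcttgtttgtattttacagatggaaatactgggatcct
Nckap5, chr1:126492928-126493177, − strand: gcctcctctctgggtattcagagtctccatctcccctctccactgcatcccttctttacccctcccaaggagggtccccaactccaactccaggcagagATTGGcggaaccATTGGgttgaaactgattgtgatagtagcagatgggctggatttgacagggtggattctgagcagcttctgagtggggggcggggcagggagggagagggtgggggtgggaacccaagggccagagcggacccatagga
The Dlg2 start is an inner one, at base 92234970, and a shared region ended 3.48 kb before it. Its window holds ATTGG from 70 bases and CCAAT from 42 bases before the start. At the Etl4 start the nearest shared region was 32.9 kb away and the window holds neither word. At the Nckap5 start that region was 63.9 kb away, with ATTGG from 151 and 139 bases before the start. Over the 15 starts the distance to the nearest shared region of the gene had a median of 114.2 kb and ran up to 416.1 kb, in Asic2. CCAAT or ATTGG, which are 1 word read on either strand, occurred in 8 of the 15 windows, or 53.3%, and in 33.8% of all 32851 windows of 250 bases in the table. A match describes the letters and is not a binding site, and the sequences under the peaks were not analysed here.

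The 8 genes were set first beside all 722 protein-coding genes over 250 kb, the 8 included. The 2 sets are not matched in length, with a median span of 908.7 kb for the 8 and 393.2 kb for the 722. Of the 722 long genes, 28.5% held at least 1 shared region and 1.25% held at least 4, the limit that chose the 8. The 28.5% are 206 genes, of which 128 were left without list 1. Among genes over 1 Mb, to which Dlg2, Csmd1 and Asic2 belong, 66.1% of 59 held at least 1, against 1.63% of genes of 250 kb or less. All 8 genes had a peak in every list, while among all long genes 43.4% had a peak of list 1, 27.0% of list 2 and 27.3% of list 3. These shares stand beside counts that the choice of genes bears on, and nothing is read from them. Csmd1 and Etl4 held 5 shared regions and the other 6 genes held 4, which makes 34 in 7.80 Mb of gene span.

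The choice set a floor of 4 for the counts, and none of the 8 genes held more than 5. With counts so alike, the number per Mb in the 8 genes runs in the reverse order of their spans, and it is given only as a description. Dlg2 spans 1973 kb and held 2.03 shared regions per Mb, while Tmem132b spans 260.2 kb and held 15.4. Luzp2 had 9.22 per Mb, Pde1c 6.86, Etl4 5.55, Nckap5 4.36, Asic2 3.68 and Csmd1 3.04. Summed over the 722 long genes, with overlapping genes each counted, there were 0.846 shared regions per Mb.

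**Figure D1:**
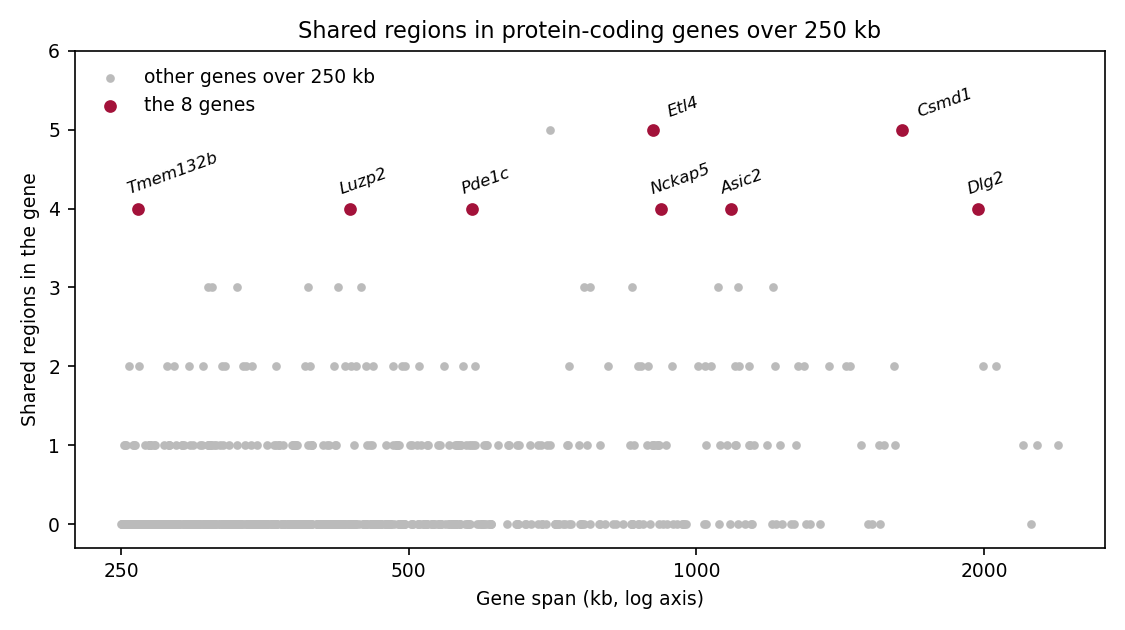
Shared regions (vertical axis, count) against gene span (horizontal axis, kb, log scale) for the 722 protein-coding genes over 250 kb; each point is a gene and the 8 genes are in red. The 8 genes lie at 4 or 5 shared regions at spans from 260.2 to 1973 kb, and most grey points lie at 0.

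Just outside the limit on regions were 12 long genes with 3 shared regions each. They span 308.0 to 1203 kb: Auts2, Camk1d, Ccser1, Ctnnd2, Dip2c, Gpc6, Grid1, Limch1, Myo5b, Nav3, Prkd1 and Slc4a4. Just outside the limit on length were Pkd2l1 and Trak1 with 5 shared regions and Rab3gap1 and Scd3 with 4, in spans of 40.7 to 177.4 kb. The genes inside and outside differ by a single region at the limit of 4.

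Most of the shared regions in the 8 genes had another one close by, but only in Asic2, Pde1c and Tmem132b did all of them lie together. Of the 34 shared regions, 23, or 67.6%, had another shared region within 10 kb, a distance chosen after the values were seen. The same was true of 26.5% of the 268 shared regions in other long genes and of 34.9% of all 3048 shared regions. The choice of genes with at least 4 regions bears on this share, and the difference was not tested. When regions within 10 kb were joined into 1 place, the 34 regions formed 19 places, 8 with several regions and 11 with 1. In Asic2, Pde1c and Tmem132b all shared regions fell in 1 place, Csmd1, Dlg2, Nckap5 and Luzp2 had 3 places, and Etl4 had 4. Among the 722 long genes, 166 had 1 place, 32 had 2, 7 had 3 and 1, Etl4, had 4.

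**Figure D2:**
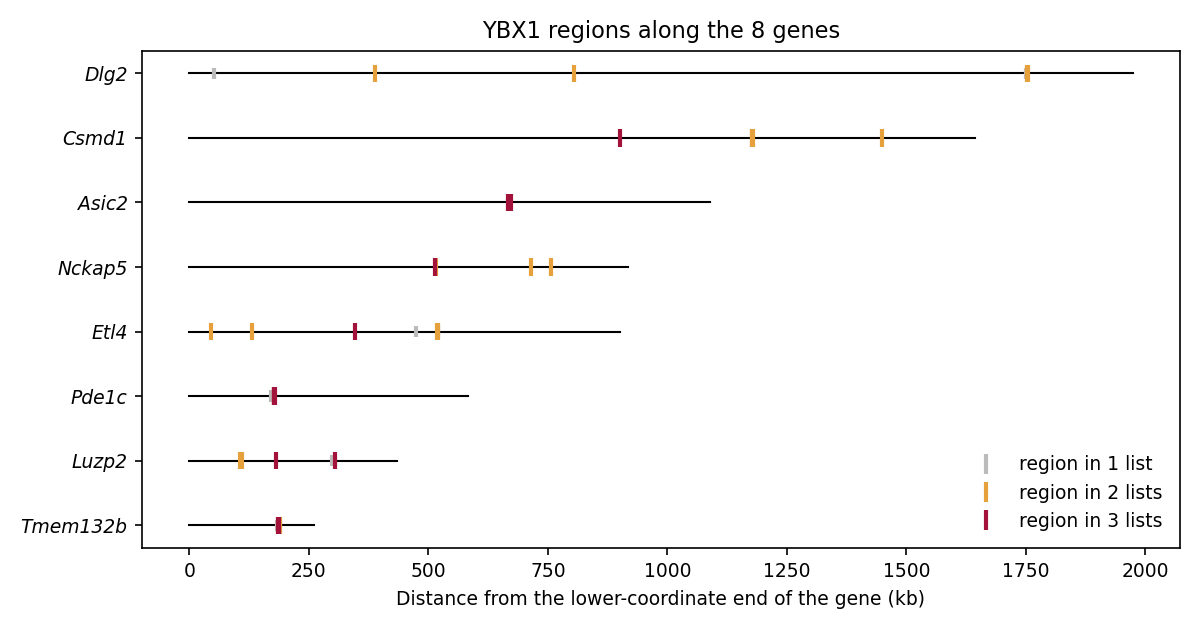
Regions along each gene, with distance from the lower-coordinate end in kb on the horizontal axis and 1 gene per row; black lines are gene spans and coloured marks are regions found in 1, 2 or 3 lists. In Asic2, Pde1c and Tmem132b the marks fall together, and the shared regions of Etl4 spread from 5.08% to 57.7% of the span.

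No region of any of the 8 genes overlapped another annotated gene, pseudogenes and long noncoding RNA genes included. The same count for regions in other genes is not given here, so this is not read as a trait of the 8 genes. The 8 places with several shared regions measured 2.14 to 4.75 kb from the first to the last shared region, and the gaps inside them ran from 178 bp to 3.06 kb. The summits were closely repeated. In 26 of the 34 shared regions the summits of the lists with a peak there lay within 10 bp of each other, or 76.5%, and in 8 they fell on the same base. Only 13 of the 34 had a summit in all 3 lists, and in the rest 2 summits were compared. Among all shared regions 62.6% had summits within 10 bp. Of all shared regions 42.4% were in all 3 lists, against 38.2% of the 34. In 4 of the 34 the summits lay 177 to 301 bp apart, in 1 region each of Dlg2 and Luzp2 and in 2 of Pde1c.

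Dlg2 encodes PSD-93, a scaffold protein of the postsynaptic density, and lies on chromosome 7 from 90476188 to 92449246. It was the only gene of the 8 without a region in all 3 lists, and list 2 had just 1 peak in it, against 5 in list 1 and 4 in list 3. The regions at 90863775 to 90864030 and 91280873 to 91281047 stood alone, at 19.7% and 40.8% of the span. The first had a fold over input of 1.80 in list 1 and 1.64 in list 3, and the second of 1.91 and 1.78. The other 2 lay 3.48 and 5.37 kb before the inner start shown above. At 92229065 to 92229597 the fold was 2.70 in list 1 and 1.42 in list 2, with summits 301 bp apart, so the overlapping peaks of the 2 lists need not mark the same spot. At 92231098 to 92231491 the fold was 2.20 in list 1 and 1.85 in list 3. Without list 1 no shared region was left in Dlg2.

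Asic2 encodes a proton-gated sodium channel of neurons, and lies on chromosome 11 from 80880163 to 81968396. All 4 of its shared regions fell within 4.75 kb, at 61.4% to 61.7% of the span, and 3 of them were in all lists. The region at 81549464 to 81549841 had the highest fold of any peak in the 8 genes, 3.22 in list 1, with 2.56 in list 2 and 2.59 in list 3, a mean of 2.79 ± 0.373 (SD, n = 3). Of the 3 regions in all lists, the one at 81551901 to 81552310 varied least, with 2.54, 2.51 and 2.39. The one at 81547561 to 81548150 had 2.24, 1.89 and 1.82, and the one at 81548329 to 81548614 had 2.51 in list 1 and 1.82 in list 2. List 1 alone had 2 further peaks, 1 just below this stretch with a fold of 1.41 and 1 inside it with 1.61.

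Pde1c encodes a phosphodiesterase that calcium and calmodulin activate and that breaks down cyclic AMP and cyclic GMP. It lies on chromosome 6 from 56069798 to 56652510, and its 4 shared regions formed the densest row of the set, 2.32 kb long with gaps of 0.274 to 0.352 kb. Of these, 3 were in all lists. At 56248266 to 56248604 the folds were 2.39, 2.00 and 2.05 in lists 1, 2 and 3. At 56246825 to 56247161 they were 2.15, 1.79 and 2.05, and at 56247440 to 56247991 they were 2.00, 1.67 and 2.00. The region at 56246281 to 56246472 had 1.80 in list 1 and 1.64 in list 3. In the 3 regions found by all lists, list 2 had the lowest fold, and in 2 of them the summits of the lists lay 177 and 204 bp apart.

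Csmd1 encodes a very large membrane protein with CUB and sushi domains that acts on complement in the brain. It lies on chromosome 8 from 15892538 to 17535385, and its regions lay between 54.8% and 88.2% of the span. The region at 16793028 to 16793417 was the only one in all lists, with folds of 3.19, 2.53 and 2.59, a mean of 2.77 ± 0.364 (SD, n = 3). The place at 17069324 to 17072249 held 3 regions, each in a different pair of lists. The region at 17069324 to 17069623 had 1.74 in list 2 and 1.88 in list 3, and was the only one of the 34 that list 1 lacked. The next, at 17070260 to 17070500, had 1.38 and 1.31 in lists 1 and 2, and the last, at 17071976 to 17072249, had 1.49 and 1.40 in lists 1 and 3. The region farthest along the gene, at 17341045 to 17341215, had 1.81 in list 1 and 1.96 in list 3 with both summits on the same base.

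Tmem132b encodes a membrane protein of the TMEM132 family and lies on chromosome 5 from 125532418 to 125792583. Its shared regions lay within 4.46 kb, and with the regions of list 1 alone there were 7 in 6.37 kb. At 125719508 to 125719741 the folds were 2.46, 2.75 and 2.86, a mean of 2.69 ± 0.207 (SD, n = 3), with all 3 summits on the same base. This was also the only one of the 13 regions in all lists where list 1 did not have the highest fold. The region at 125718176 to 125718529 had 2.19, 2.03 and 1.76. The region at 125717056 to 125717411 had 1.73 in list 1 and 1.57 in list 3, and the region at 125721080 to 125721517 had 1.68 and 1.62.

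Nckap5, on chromosome 1 from 125913636 to 126830796, held 4 shared regions and no region of a single list. At 126426486 to 126426857 the folds were 2.08, 2.01 and 1.63. The neighbouring region at 126428847 to 126429057 had 1.51 in list 1 and 1.53 in list 2, with pileups of 130 and 131 tags, the lowest of any shared region in the 8 genes. The region at 126669600 to 126670017 had a fold of 3.09 in list 1 and 2.27 in list 3 at nearly equal pileups of 144 and 144.2 tags. The local input differed, at 11.4 and 15.6 times the genome-wide level. The region at 126628181 to 126628364 had 2.00 and 2.08 in the same lists.

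Luzp2 encodes a leucine zipper protein and lies on chromosome 7 from 54835245 to 55268888. Its folds were the lowest of the set by the median over peaks, 1.58 for 12 peaks. At 55017152 to 55017430 all lists had a peak, with folds of 1.53, 1.33 and 1.32 over a local input of 42.8 to 49.9 times the genome-wide level. At 55140381 to 55140856 the folds were 2.07, 1.64 and 2.07, with the list 2 summit 237 bp from that of list 3. The last 2 regions, at 54941213 to 54941456 and 54944518 to 54944761, both had 1.73 in list 1, and 1.50 and 1.51 in list 3.

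Etl4, also called Skt for the sickle tail phenotype of its mutants, takes part in the development of the intervertebral discs. It lies on chromosome 2 from 19910207 to 20810535 and had the most regions of any kind, 8, of which 3 were in a single list. The region in all lists, at 20256719 to 20257044, had folds of 2.11, 1.78 and 1.62. At 19955806 to 19956088 and 20042005 to 20042245 the folds were 1.40 and 1.37 in list 1 and 1.30 and 1.31 in list 2. The region at 20429291 to 20429667 had 2.37 in list 1 and 2.04 in list 3. The region at 20427526 to 20427793, in the same place, had 1.80 in list 1 and 1.66 in list 2.

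**Figure D3:**
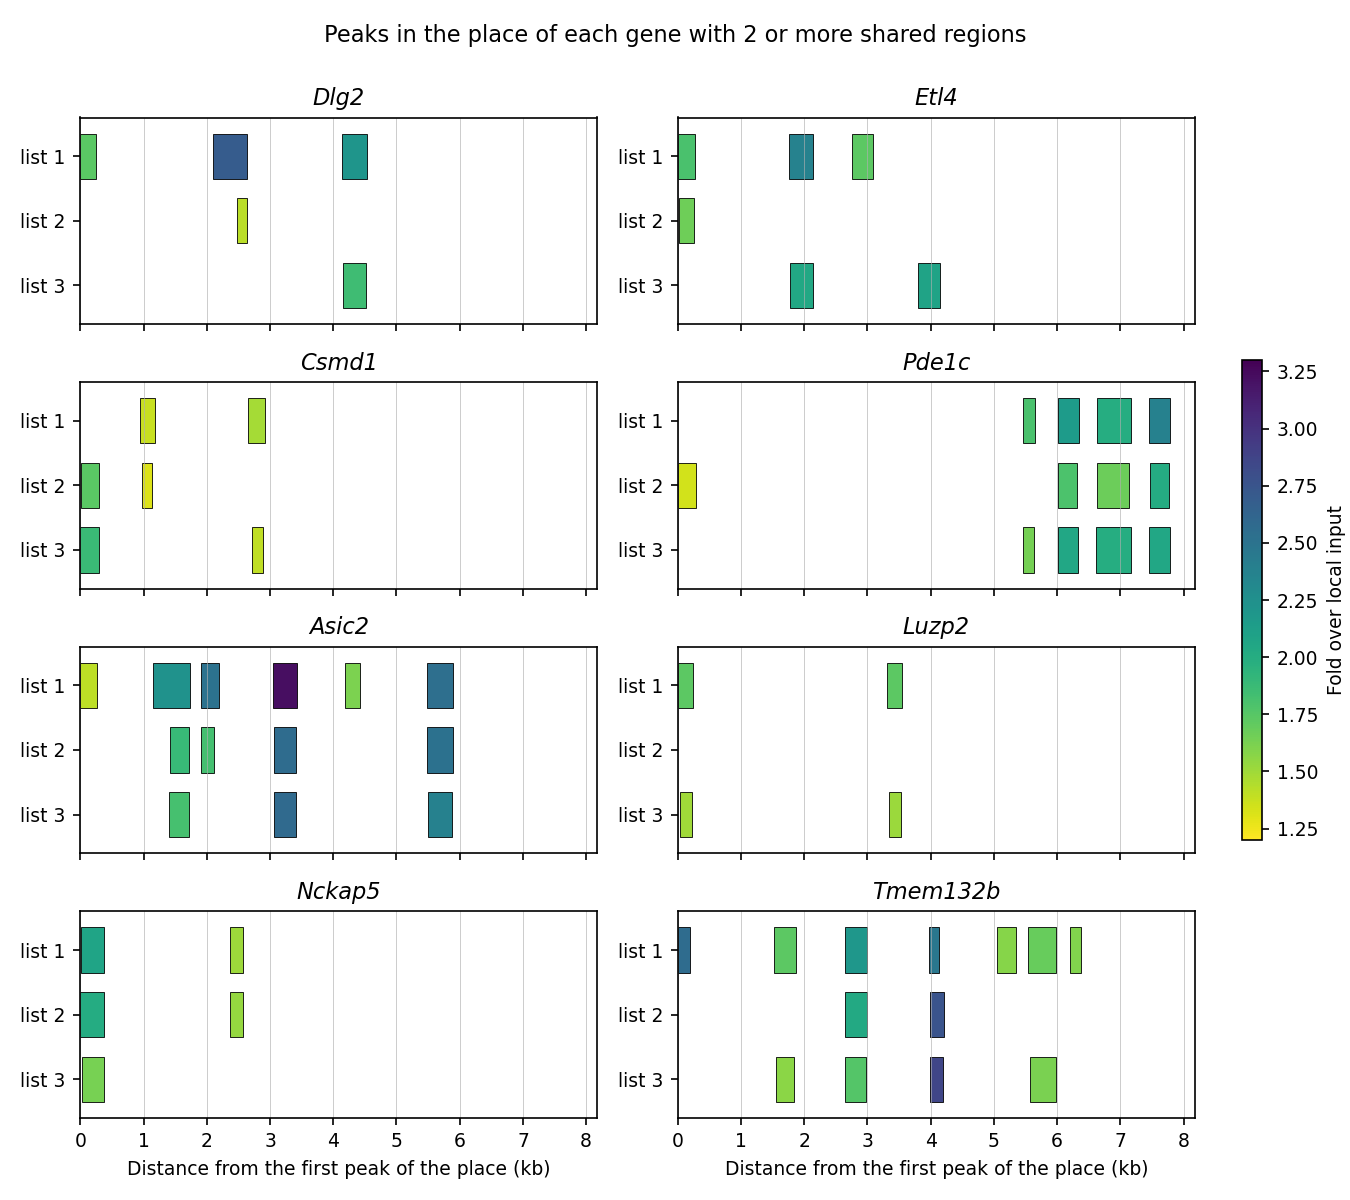
Peaks of lists 1, 2 and 3 in the place of each gene that holds several shared regions; the horizontal axis is the distance in kb from the first peak there, each bar is a peak drawn to its length, and its colour is the fold over local input. Pde1c shows the same row of regions in lists 1 and 3, and Asic2 and Tmem132b have peaks of list 1 without a partner.

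The folds and −log10 q values above and below are the authors' own values for each peak. A list without a peak at a region gives no value there, which is not the same as a fold of 1. Over the 94 peaks in the 8 genes, 41 of list 1, 23 of list 2 and 30 of list 3, the fold ran from 1.30 to 3.22. The median fold was 1.81, 1.74 and 1.87 in lists 1, 2 and 3, or 1.81 ± 0.0672 (SD, n = 3), against 1.77 ± 0.0229 for all peaks of the lists. The median −log10 q was 11.8 ± 2.01 in the 8 genes and 7.96 ± 1.53 over all peaks (SD, n = 3). It was higher in the 8 genes in each of the 3 lists, and the difference was not tested, since called peaks chose the genes. The choice asked each gene for at least 4 regions found in at least 2 lists, a demand not made of all peaks. In the 8 genes 13 of 47 regions were in 1 list only, 8, 2 and 3 of them in lists 1, 2 and 3. The peaks of these 13 are among the 94. The 2 sets are therefore unlike, for fold as for −log10 q.

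Of the 34 shared regions, 33 were in list 1, 21 in list 2 and 27 in list 3. Regions in all lists made up 13 of 34, or 38.2%, against 42.4% of all shared regions and 49.3% of those in other long genes. The pair of lists 1 and 3 accounted for 13 more regions, lists 1 and 2 for 7 and lists 2 and 3 for 1. Among all 3048 shared regions these pairs accounted for 933, 749 and 75. Regions that list 1 lacked were thus few there too, and reliance on list 1 is not particular to the 8 genes. List 1 had the higher fold in 18 of 20 regions it shared with list 2 and in 23 of 26 it shared with list 3. List 1 also held the most peaks in all, and without it 14 of the 34 shared regions were left, against 26 without list 2 and 20 without list 3. In 8 of the 34 regions every list with a peak had a fold of at least 2, and in 16 no list did. The fold was not counted in these ways over all shared regions. The fold counts are therefore not read as traits of the 8 genes.

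**Figure D4:**
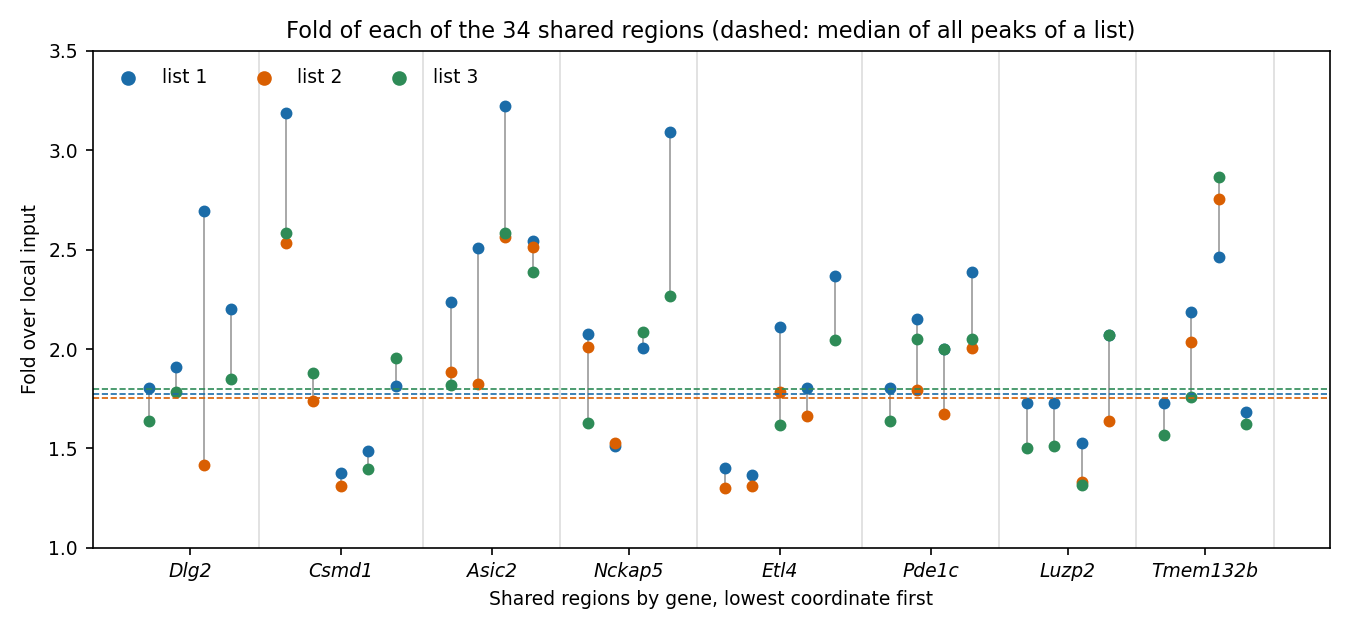
Fold over local input (vertical axis) of the 34 shared regions in the 8 genes; each point is a list, grey lines join the lists of a region, and dashed lines are the medians of all peaks of a list. Asic2 reaches 3.22 and Csmd1 3.19 in list 1, and 2 regions of Etl4 and 1 of Csmd1 stay below 1.41.

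The input under these peaks was high. The local input, the level of the input library that the caller set against the pileup, was recovered from fold and pileup and divided by the level expected if tags were spread evenly over the genome. In the 8 genes it ran from 11.4 to 51.3 times that level. The medians were 27.2, 25.6 and 27.6 in lists 1, 2 and 3, or 26.8 ± 1.08 (SD, n = 3), and 26.6 ± 1.49 for all peaks. None of the 94 peaks lay below 5 times the genome-wide level, where 2.50%, 7.61% and 5.06% of all peaks of the lists lay. These shares are low and the sets of peaks are unlike for input too, so the absence is not read as a trait of the 8 genes. What the input level contributes to these calls was not tested.

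The pileup, which counts the extended tags covering a summit, ran from 105.7 to 281 in the 8 genes. Since 1 tag per position and strand was kept, it could not exceed 320 in lists 1 and 2 and 307.5 in list 3. Within Etl4 the peak with the lowest pileup, 105.7 in list 3 alone, had a fold of 1.87. Those with the highest, 273 in list 1 and 275 in list 2 over inputs of 48.1 and 51.3 times the genome-wide level, had 1.40 and 1.30. Fold and input are tied, since the input is the divisor of the fold, and the highest pileup of the set, 281 in list 1 in Dlg2, stood with a fold of 2.20.

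**Figure D5:**
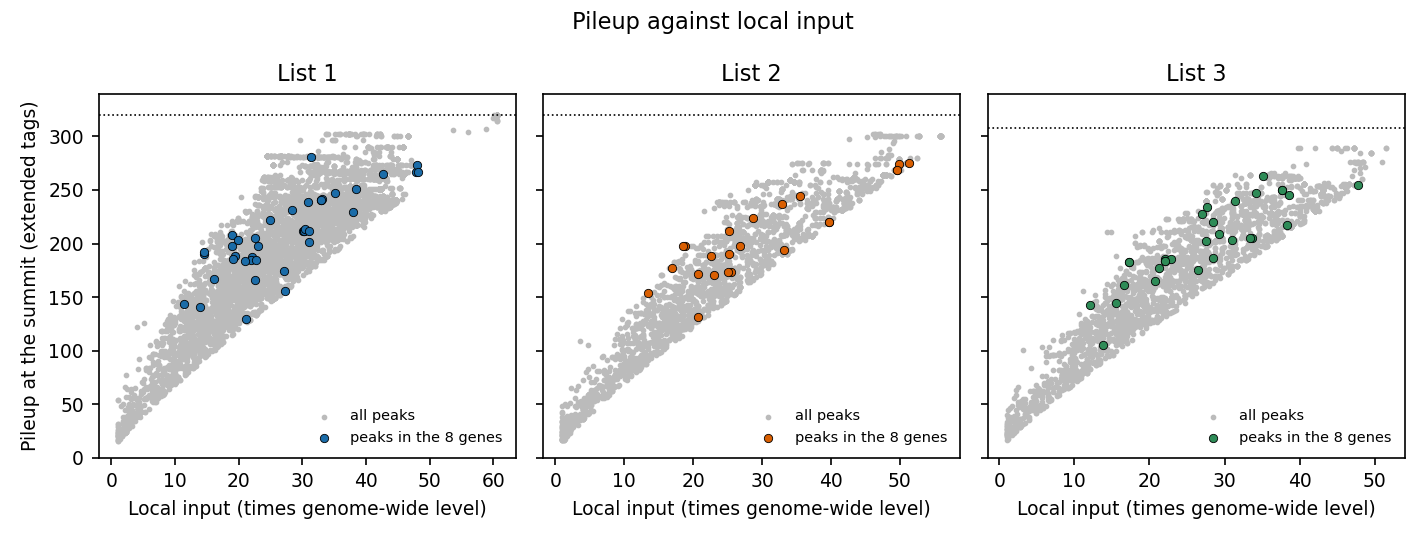
Pileup at the summit (vertical axis, extended tags) against local input (horizontal axis, times the genome-wide level) for all peaks of each list in grey and for peaks in the 8 genes in colour; the dotted line is the highest pileup possible. Peaks in the 8 genes lie within the cloud of all peaks, at 11.4 times the genome-wide level or more.

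Several peaks in different genes of the set had the same values. In list 1, a pileup of 241 with a fold of 1.80 occurred in Dlg2 at 90863775, in Luzp2 at 55139835 and in Pde1c at 56246281, and in 20 other peaks of the list. All 3 had their summit 62 bp from the start of the peak. In list 3 the Dlg2 and Pde1c peaks again shared their values, a pileup of 249.9 and a fold of 1.64, with the summit 59 bp from the start in both. That list held 2 other peaks with this pileup and fold. In list 2, Luzp2 and Pde1c both had a peak of 295 bp with a pileup of 220 and a fold of 1.34. This pileup and fold occurred in 43 other peaks of the list, of which 19 also matched in length and summit offset. From the summit of the 295 bp peak to that of the list 1 peak with a pileup of 241 it was 5355 bp in both genes.

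Csmd1 and Etl4 shared a list 2 peak of 161 bp with a pileup of 269 and a fold of 1.31, at 17070293 and 20042038, and 68 peaks of the list outside the 8 genes matched both in length, summit offset, pileup and fold. The strongest regions of Csmd1 and Asic2 were also alike. Their pileups were 190 and 192 in list 1, 198 and 198 in list 2, and 182.6 and 182.6 in list 3. The list 3 pileup, with the same fold of 2.59, occurred in 7 peaks outside the 8 genes. In Csmd1 the summit lay 82, 55 and 65 bp from the upper end of the peak in lists 1, 2 and 3, and in Asic2 it lay 80, 56 and 64 bp from the lower end. Values also recurred within a gene. In list 1, Luzp2 held a pair of peaks of 244 bp with a pileup of 212 and a fold of 1.73, with summits 3305 bp apart. In list 3, Pde1c held a pair with a pileup of 183.6 and a fold of 2.05, with summits 1442 bp apart. Equal pileup and fold occurred in 5 peaks outside the 8 genes for the Luzp2 pair and in 2 for the Pde1c pair.

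Such matches also occurred throughout the lists. Equal pileup and fold in another peak of the same list occurred for 64.1% ± 6.90 of the peaks in the 8 genes and 55.9% ± 5.72 of all peaks (SD, n = 3). With equal length and summit offset as well, the shares were 17.4% ± 4.21 and 21.3% ± 2.53. How reads that fit several positions were placed is not stated in the labels or headers. Whether the matching peaks share reads or sequence was not tested.

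The relatives of the 8 genes and other long genes were counted from 3 lists. Of 18 paralogues, 5 span over 250 kb and 1 of them, Csmd2, held a shared region. Dlg1, a paralogue of Dlg2 with a span of 209.9 kb, held 2. The rest, among them the channel genes Asic1, Asic3 and Asic4 and the phosphodiesterase genes Pde1a and Pde1b, held none. Most of the 18 span 250 kb or less, and of all genes of that length 1.63% held a shared region. Nothing is therefore read from the paralogues without one. Of 50 long genes of neurons outside the 8, 27 held a shared region, or 54.0%, with a median of 1. Gpc6 and Grid1 held 3, and Dcc, Il1rapl1 and Il1rapl2 held 2. Of 20 long genes at common fragile sites, which break under replication stress, 12 did, or 60.0%, again with a median of 1. Auts2 had 3, and Fhit, Gpc5, Lrp1b and Macrod2 had 2, followed by Ctnna3 with 1. These shares stand beside 28.5% of all long genes, whose median was 0 shared regions. The median span was 1099 kb in the neuronal and 1019 kb in the fragile site list, against 393.2 kb for all long genes, and 66.1% of all genes over 1 Mb held a shared region.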

How the data were processed

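The submitters' processing notes name Trim Galore, MACS2 and the build GRCm38, and the aligner is not given in the sources used here. Per the file headers, MACS 2.1.1.20160309 compared each immunoprecipitate with the input of its number, extending tags to 160 bp, keeping 1 tag at each position of a strand, scaling the larger library down and calling at q of 0.01. The deposited pileup is a signal in extended tags. In the deposited fold, a ratio, the authors' caller divides pileup by local input after adding 1 to each, and −log10 p and −log10 q are the deposited values of the caller. The deposited summit lists matched the tables for all peaks.

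Peaks overlapping by 1 bp were merged over lists. A gene was its RefSeq span on GRCm38.p6 with 1 kb on either side, and any overlap counted. Genes listed below 3 Mb on any chromosome but Y were omitted, because mouse assemblies have a gap there. Exons are not in the table, so exon and intron were not told apart. Local input was (pileup + 1)/fold − 1, over the smaller library's tags times extension over genome size. Merging and counting recovered all regions planted in simulated lists. Named genes were the 8 genes, the genes just outside either limit, and members of fixed lists with a shared region, at most 6 a list. Values of some single genes are not reported here. Members and lists were chosen with earlier results of these data known. No test was run, since the choice used all 3 lists. Alternatives are given in the closing section. Python 3.11.15, pandas 2.3.3 and scipy 1.17.1 were used.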

Additional observations from a re-analysis of the deposited data

How the results depend on the processing

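Shared regions in the 8 genes numbered 34. This became 13 when a peak in all 3 lists was required, and between 14 and 26 when a list was left out, with 14 without list 1 and 20 without list 3. The number was 34 with an overlap of 50% of the shorter peak, without the 1 kb flanks and by midpoints, 25 at a −log10 q of at least 5, and 27 without peaks that have an identical copy in their list. An identical copy had equal length, summit offset from the lower end, pileup and fold. Peaks that matched only in pileup and fold, or only as a mirror image, were kept. The 94 peaks became 53 to 71 with a list left out. The mean of the 3 median folds, 1.81, was 1.94 at a −log10 q of at least 5, 1.91 without identical copies and 1.78 to 1.84 with a list left out. The mean of the median local inputs, 26.8, was 25.0 without identical copies and 26.4 to 27.4 with a list left out. Of the 722 long genes, 206 held a shared region, 123 when all 3 lists were required and 128 to 166 with a list left out. The limit of 4 shared regions itself was kept by 8 genes in the main count, by 3 at a −log10 q of at least 5, by 4 without identical copies, by 0 without list 1, by 3 without list 2 and by 2 without list 3. It was kept by 0 when all 3 lists were required, where Dlg2 held no region. The cause was not tested. No paired analysis was possible because the authors had called peaks for each pair of immunoprecipitate and input, and no test was run. Lists hold only called peaks, so a region missing from a list may lie just under the threshold.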
